A study of Homo sapiens with 24 samples.

Results

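The TFAP2 family holds 5 genes, TFAP2A, TFAP2B, TFAP2C, TFAP2D and TFAP2E, and all 5 were found by symbol among the 61551 genes used. They were followed in H9, a human embryonic stem cell line, with 4 genotypes of HAR123, a human accelerated region within SMG6 that acts as a neural enhancer. hHAR123 is the WT line with the human element, HAR123-KO lacks both copies after CRISPR-Cas9 deletion, and in cHAR123 and mHAR123 the chimpanzee or the mouse element stands in place of the human one. Each genotype was sequenced as hESCs, kept in StemFlex medium on Matrigel, and as neuroectoderm after 5 days in knockout serum replacement medium with Noggin at 500 ng/ml and SB431542 at 10 µM, with 3 libraries for each of the 8 conditions. Noggin blocks BMP signals and SB431542 blocks activin, Nodal and TGF-beta receptors. For RNA-seq the study used fewer independent clones of each genotype than the 3 libraries of a condition, so some libraries of a condition share a clone. The clone behind each library is not given in the sources used here, so clone and genotype cannot be told apart.

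The family encodes the AP-2 factors (alpha, beta, gamma, delta and epsilon), which bind GC-rich DNA as dimers through a shared helix-span-helix region. In the early ectoderm, AP-2 alpha and AP-2 gamma act in surface ectoderm and at the neural plate border, and AP-2 alpha and AP-2 beta act in the neural crest that leaves this border. AP-2 gamma is also used in trophoblast, in primordial germ cells and in naive human pluripotent cells. AP-2 delta is known from the midbrain and the retina, and AP-2 epsilon from the olfactory bulb.

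Total counts ranged from 23334732 to 35198684 in the hESC libraries and from 21022748 to 25978892 in the neuroectoderm libraries. The stages carried the markers of their labels: POU5F1 (OCT4) stood at 1139 ± 13.4 CPM (read counts scaled to the same library total; mean ± SD, n = 3) in hHAR123 hESCs and at 15.4 ± 0.933 CPM in hHAR123 neuroectoderm. The 10 genes of a neuroectoderm and forebrain list summed to 243 to 248 CPM in the former and to 1666 to 1708 CPM in the latter. HAR123 is not a gene, so no count in the table checks the deletion or the replacements. In neuroectoderm, the supplementary gene lists of the study for cHAR123 and for mHAR123 each fit the libraries that carry the other of these labels. Which is right cannot be told here, so the text gives them as the libraries labelled cHAR123 and mHAR123. In hESCs, and for HAR123-KO at both stages, lists and labels match.

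Of the 5 genes, 3 lie on chromosome 6. In GRCh38, TFAP2A (ENSG00000137203) spans chr6:10393186-10419659 on the minus strand and has 8220 exonic bases in the counting annotation. TFAP2D (ENSG00000008197) spans chr6:50713526-50773033, and TFAP2B (ENSG00000008196) chr6:50818723-50847619, both on the plus strand, with 45690 bases between the end of TFAP2D and the start of TFAP2B. TFAP2C (ENSG00000087510) spans chr20:56629306-56639283 and TFAP2E (ENSG00000116819) chr1:35573314-35595328, both on the plus strand. TFAP2A shares exonic bases with genes on the opposite strand, 438 with TFAP2A-AS1 and 941 with TFAP2A-AS2, and TFAP2E shares 110 with TFAP2E-AS1. Whether reads were assigned by strand is not given in the sources used here, and without strand the reads of those stretches cannot be told apart.

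The start regions of 3 members are shown because TFAP2A and TFAP2B rose from near 0 reads in hESCs and differed by genotype in neuroectoderm, while TFAP2E was called in no comparison between genotypes. They are RefSeq bases before the gene start (GRCh38.p14), 5′ to 3′ on the gene's strand. Capitals mark the letters TATAAA, or TTTATA where the match is on the other strand. TFAP2A is chr6:10419660-10419909 (minus strand), TFAP2B is chr6:50818621-50818722 (plus strand, the part before its first exon) and TFAP2E is chr1:35573064-35573313 (plus strand).
TFAP2A: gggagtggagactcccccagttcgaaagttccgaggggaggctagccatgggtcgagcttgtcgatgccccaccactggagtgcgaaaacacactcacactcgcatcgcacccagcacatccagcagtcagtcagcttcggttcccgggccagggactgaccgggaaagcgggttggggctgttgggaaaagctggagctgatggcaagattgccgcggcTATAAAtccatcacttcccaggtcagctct
TFAP2B: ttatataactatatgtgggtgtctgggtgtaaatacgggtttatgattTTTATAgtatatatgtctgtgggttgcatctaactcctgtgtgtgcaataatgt
TFAP2E: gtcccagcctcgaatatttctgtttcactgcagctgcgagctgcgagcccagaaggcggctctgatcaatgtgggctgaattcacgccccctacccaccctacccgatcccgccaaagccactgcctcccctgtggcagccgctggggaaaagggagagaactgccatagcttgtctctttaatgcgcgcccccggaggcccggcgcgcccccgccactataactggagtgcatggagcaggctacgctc
In these upstream windows of 250 bases TATAAA begins 30 bases before the TFAP2A start and lies on the other strand 202 bases before the RefSeq TFAP2B start, and TFAP2D holds it 55 bases before its start. No match was found in the TFAP2E window or at the second TFAP2A start, and 10.7% of the 35116 RefSeq promoters of the same length hold one on either strand. The AP-2 site searched, GCCNNNGGC, which reads the same on both strands, had no match in the 5 windows of the 4 members that have an entry, against 19.8% of all promoters. The E-box CACGTG, also the same on both strands, had none either, against 6.34% of all promoters. The windows of TFAP2B (40.8% G or C) and TFAP2D (39.2%) were poorer in G and C than the promoter median of 58.0%, and that of TFAP2E (62.4%) and those of both TFAP2A starts (59.6% and 71.2%) were richer.

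In hESCs the family was almost only TFAP2C. Per length, TFAP2C stood at 1.29 ± 0.129 RPKM (CPM per 1000 exonic bases; SD, n = 3) in hHAR123 hESCs, which was 94.7% of the summed RPKM of the 5 genes, and its share was 96.8%, 96.1% and 97.2% in HAR123-KO, cHAR123 and mHAR123. TFAP2E came next with 0.0654 ± 0.0202 RPKM in hHAR123, from 7 to 12 reads a library. TFAP2A had 0 to 5 reads a library and 16 reads over the 12 hESC libraries, TFAP2B had 0 to 6 and 23, and their ranges in RPKM overlapped in hHAR123 and cHAR123. TFAP2D had no read in any of the 12 hESC libraries, which allows up to 0.00828 CPM (3 counts of 362450680, counting error only).

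**Figure D1:**
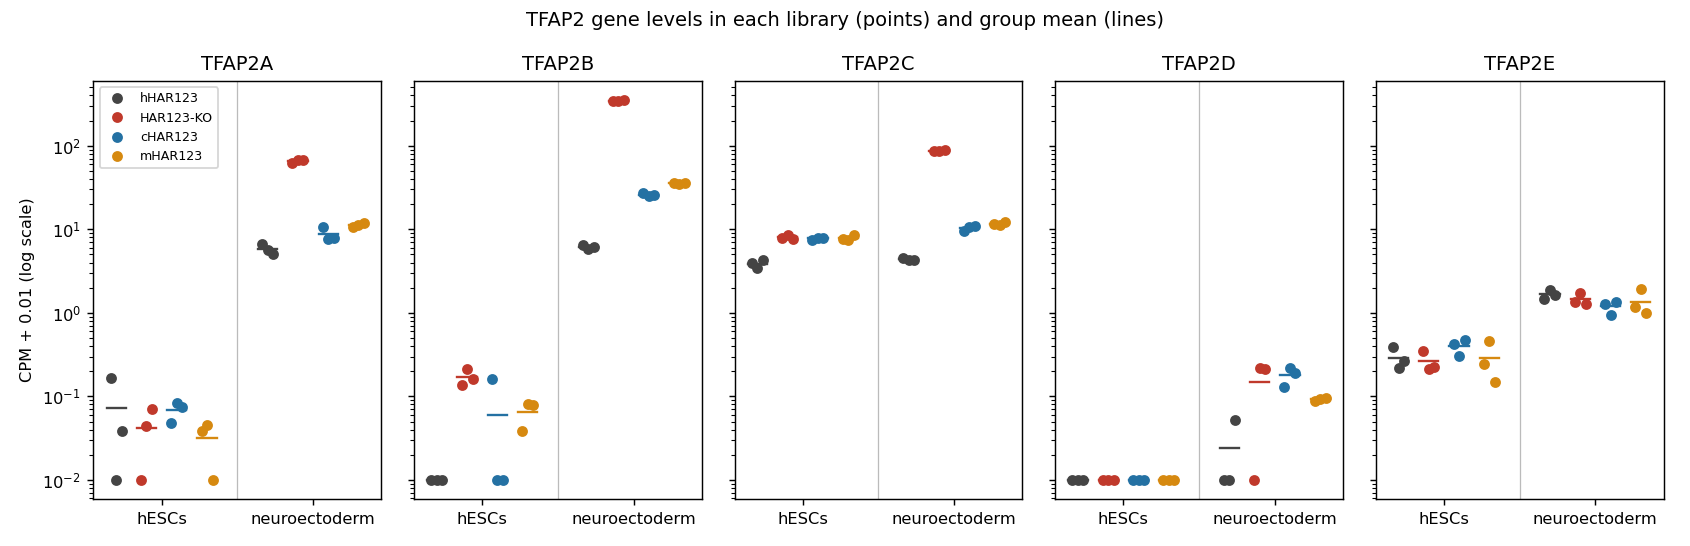
Level of each TFAP2 gene in CPM + 0.01 on a log axis, with 3 libraries (points) and their mean (line) for each genotype in hESCs (left of each panel) and neuroectoderm (right). TFAP2A, TFAP2B and TFAP2C stood highest in HAR123-KO neuroectoderm, at 65.4, 348 and 87.4 CPM on average, while TFAP2E lay between 0.930 and 1.90 CPM in all neuroectoderm libraries.

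In hHAR123 neuroectoderm, TFAP2A, TFAP2B and TFAP2E were higher than in hESCs and TFAP2C was not. Genes were called changed at an adjusted p under 0.01 and a fold change over 2 (edgeR's quasi-likelihood test, Benjamini-Hochberg adjustment over all genes tested). Of the 4 members tested 3 were called, beside 45.9% of all genes tested in this comparison. TFAP2A and TFAP2B passed the filter on low counts only through neuroectoderm, so they could only be called higher. TFAP2B went from 0 reads in the 3 hESC libraries to 138, 141 and 144 reads, or 6.56, 5.83 and 6.15 CPM (adjusted p = 3.75e-22). This is 206 times a floor of 3 counts over the hESC group, leaving out the counting error of the neuroectoderm reads. TFAP2A went from 5, 0 and 1 reads to 141, 136 and 119, a ratio of 96.2 per library total with an exact counting interval of 43.8 to 264 (adjusted p = 3.22e-20). TFAP2E went from 12, 7 and 9 reads to 31, 45 and 38 (log2 fold change 2.26 ± 0.30 SE, adjusted p = 1.16e-08). No library of one stage overlapped the other for these 3 genes.

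TFAP2C stood at 3.91, 3.46 and 4.23 CPM in hHAR123 hESCs and at 4.52, 4.26 and 4.27 CPM in hHAR123 neuroectoderm. All 3 neuroectoderm values lay above the hESC values in CPM, but the fitted log2 fold change was -0.13 ± 0.13 (95% interval -0.39 to 0.13, adjusted p = 0.352). The sign turned when libraries were scaled by their totals alone (0.17, adjusted p = 0.224), which took the median log2 fold change of all genes from 0.049 to 0.341. With TFAP2C at 1.45 ± 0.0492, TFAP2B at 1.004 ± 0.0601, TFAP2A at 0.706 ± 0.101 and TFAP2E at 0.384 ± 0.0451 RPKM, the order of the levels in hHAR123 neuroectoderm was C, B, A, E, and the ranges of neighbours did not overlap. TFAP2D had 0, 0 and 1 read.

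In HAR123-KO neuroectoderm the levels of TFAP2A, TFAP2B and TFAP2C were many times those of hHAR123, and TFAP2E did not move with them. Of the 4 members tested 3 were called, all higher, beside 9.45% of all genes tested. In a bulk library more cells that express a gene and more RNA per cell cannot be told apart, here and in the comparisons that follow. TFAP2B had 6.56, 5.83 and 6.15 CPM in hHAR123 and 347, 343 and 353 CPM in HAR123-KO, and its difference was the largest of the family (58.4-fold, log2 fold change 5.87 ± 0.05, adjusted p = 1.68e-56). TFAP2C had 4.52, 4.26 and 4.27 CPM in hHAR123 and 86.9, 87.0 and 88.4 CPM in HAR123-KO (20.8-fold, log2 fold change 4.38 ± 0.07, adjusted p = 5.35e-46). TFAP2A had 6.71, 5.62 and 5.08 CPM in hHAR123 and 62.2, 67.0 and 66.9 CPM in HAR123-KO (11.7-fold, log2 fold change 3.55 ± 0.07, adjusted p = 1.26e-40). The groups lay far apart in each of these genes, and the 95% intervals of the log2 fold changes, 5.77 to 5.97 for TFAP2B, 4.25 to 4.52 for TFAP2C and 3.41 to 3.70 for TFAP2A, did not overlap each other.

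TFAP2E had 1.47, 1.86 and 1.62 CPM in hHAR123 and 1.34, 1.71 and 1.27 CPM in HAR123-KO neuroectoderm, values that overlapped. Its log2 fold change of -0.16 ± 0.22 had a 95% interval of -0.60 to 0.29 (adjusted p = 0.582). TFAP2D, the neighbour of TFAP2B, had 0, 5 and 5 reads in HAR123-KO against 0, 0 and 1 in hHAR123, too few to pass the filter on low counts in any comparison. In the same 3 HAR123-KO libraries TFAP2B had 8064, 8237 and 8632 reads.

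**Figure D2:**
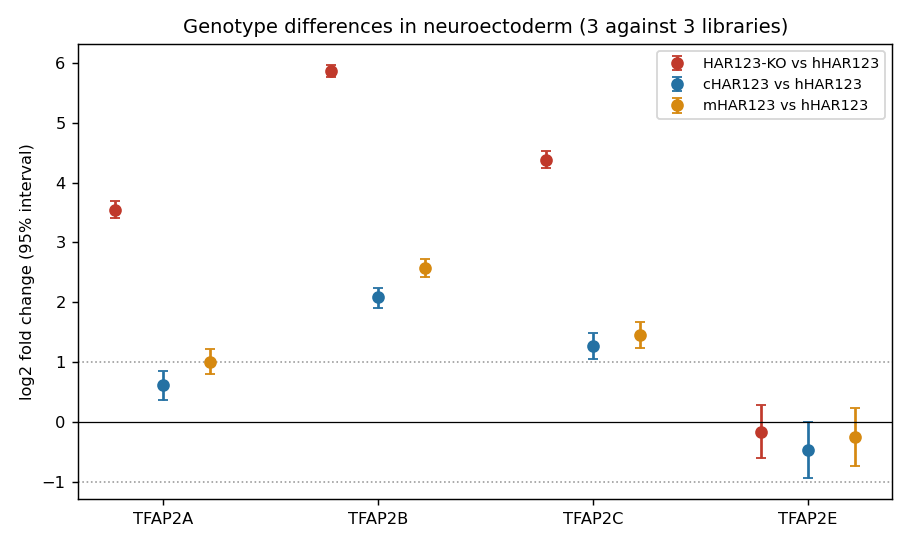
Fitted log2 fold change against hHAR123 in neuroectoderm with its 95% interval, for the 4 members tested and the 3 edited genotypes (3 against 3 libraries), with dotted lines at a fold change of 2 in either direction. TFAP2A, TFAP2B and TFAP2C lie above 0 in all 3 comparisons and highest in HAR123-KO (3.55, 5.87 and 4.38). The intervals of TFAP2E include 0 in HAR123-KO and mHAR123 and end just below 0 in cHAR123.

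TFAP2A, TFAP2B and TFAP2C were also higher than in hHAR123 with a replaced element, by smaller folds. The comparisons of HAR123-KO, cHAR123 and mHAR123 share their hHAR123 libraries, so they are given side by side. In the libraries labelled cHAR123, 2 of 4 members tested were called, beside 0.978% of all genes tested. TFAP2B had 26.9, 24.9 and 25.5 CPM (log2 fold change 2.08 ± 0.08, adjusted p = 2.47e-23) and TFAP2C 9.65, 10.6 and 10.9 CPM (1.27 ± 0.11, adjusted p = 1.50e-12). TFAP2A, with 10.7, 7.73 and 7.76 CPM, lay above all hHAR123 libraries but under the fold limit (0.62 ± 0.12, adjusted p = 1.93e-04).

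In the libraries labelled mHAR123, 3 of 4 were called, beside 1.03% of all genes tested. TFAP2B had 36.3, 35.2 and 35.7 CPM (log2 fold change 2.58 ± 0.08, adjusted p = 2.97e-26), and TFAP2C had 11.4, 11.2 and 12.2 CPM (1.46 ± 0.10, adjusted p = 5.18e-14). TFAP2A had 10.6, 11.3 and 11.98 CPM (1.01 ± 0.10, adjusted p = 1.10e-09), a value at the fold limit that fell to between 0.92 and 0.99 when hHAR123 replicate 2, hHAR123 replicate 3 or mHAR123 replicate 3 was left out, and to 0.96 with libraries scaled by totals alone. TFAP2E was not called in either, with log2 fold changes of -0.47 ± 0.23 (95% interval -0.94 to -0.00, adjusted p = 0.17) in cHAR123 and -0.25 ± 0.24 (-0.74 to 0.23, adjusted p = 0.496) in mHAR123. In cHAR123 all 4 members tested, with TFAP2E, had an unadjusted p under 0.05, as had 6160 of 21275 of all genes tested. The cHAR123 libraries of TFAP2E (1.28, 0.930 and 1.35 CPM) lay below all hHAR123 libraries, and those of mHAR123 (1.15, 1.90 and 0.995 CPM) on both sides of them. TFAP2D had 3, 5 and 4 reads in cHAR123 and 2 in each library of mHAR123.

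Set against HAR123-KO itself, the 3 genes were far lower in neuroectoderm of both replacement genotypes. In cHAR123, 3 of 4 members tested were called lower, beside 7.61% of all genes tested, with log2 fold changes of -3.76 ± 0.03 for TFAP2B, -3.09 ± 0.05 for TFAP2C and -2.91 ± 0.07 for TFAP2A (adjusted p from 1.66e-67 to 3.75e-45). In mHAR123, 3 of 4 were called lower, beside 7.33% of all genes tested, at -3.27 ± 0.03, -2.90 ± 0.05 and -2.52 ± 0.06 in the same order (adjusted p from 5.72e-49 to 1.28e-35). TFAP2E differed from HAR123-KO by -0.29 ± 0.24 and -0.07 ± 0.24 (adjusted p = 0.339 and 0.84).

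Between the replacements no member was called by edgeR or by DESeq2, beside 0.261% of all genes tested, and 3 of 4 had an unadjusted p under 0.05. TFAP2B and TFAP2A passed the p threshold, higher in the libraries labelled mHAR123, with fold changes under 2. The log2 fold change was 0.49 ± 0.05 for TFAP2B (95% interval 0.39 to 0.60, adjusted p = 1.77e-09) and 0.38 ± 0.10 for TFAP2A (0.19 to 0.58, adjusted p = 0.00807). The TFAP2B libraries did not overlap, while one TFAP2A library of cHAR123 (10.7 CPM) lay within the mHAR123 range. TFAP2C differed by 0.18 ± 0.08 (0.01 to 0.35, adjusted p = 0.223) and TFAP2E by 0.21 ± 0.26 (-0.30 to 0.73, adjusted p = 0.735). The direction between these groups depends on the labels being right.

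The makeup of the family differed with its total. The summed RPKM of the 5 genes in neuroectoderm was 3.55 ± 0.159 in hHAR123, 9.07 ± 0.205 in cHAR123, 11.4 ± 0.158 in mHAR123 and 94.0 ± 1.17 in HAR123-KO. TFAP2C held the largest share in hHAR123 (40.8%, against 28.3% for TFAP2B), and TFAP2B the largest in cHAR123 (46.2%), mHAR123 (51.0%) and HAR123-KO (60.1%). The share of TFAP2A was 19.8% in hHAR123 and 8.46% in HAR123-KO, although its level was higher there. In the 3 edited genotypes the order of the levels was B, C, A, E, D, and no neighbours in it overlapped.

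**Figure D3:**
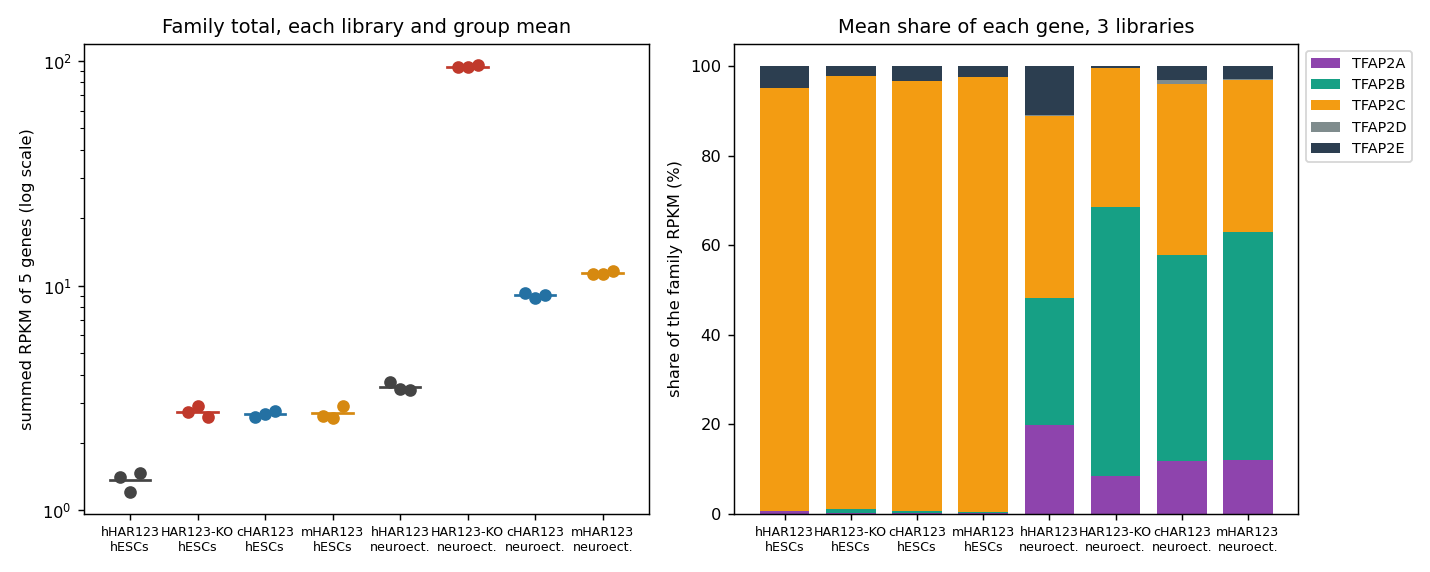
Left, the summed RPKM of the 5 TFAP2 genes on a log axis in each library (points) with the group mean (line) for the 8 conditions; right, the mean share of each gene in that sum (stacked bars, 3 libraries each). TFAP2C fills 94.7% to 97.2% of the sum in hESCs, and TFAP2B takes 28.3% to 60.1% in neuroectoderm, where the HAR123-KO total of 94.0 RPKM stands above all others.

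In hESCs, TFAP2C stood about 2-fold higher in all 3 edited genotypes than in hHAR123. It had 3.91, 3.46 and 4.23 CPM in hHAR123, 7.93, 8.47 and 7.54 CPM in HAR123-KO, 7.48, 7.82 and 7.96 CPM in cHAR123, and 7.68, 7.37 and 8.64 CPM in mHAR123. Every edited library lay above every hHAR123 library, and the edited groups overlapped one another. The log2 fold change against hHAR123 was 1.02 ± 0.10 in HAR123-KO (adjusted p = 2.59e-10), 0.97 ± 0.10 in cHAR123 (adjusted p = 2.55e-09) and 0.99 ± 0.10 in mHAR123 (adjusted p = 2.62e-10).

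These values lie on either side of the fold limit, so TFAP2C was called in HAR123-KO alone (1 of 1 member tested, beside 1.18% of all genes tested) and in neither cHAR123 (0 of 2, beside 0.850%) nor mHAR123 (0 of 1, beside 1.23%), where its p passed and its fold did not. TFAP2C differed from HAR123-KO by -0.04 ± 0.09 in cHAR123 (95% interval -0.22 to 0.14, adjusted p = 0.829) and by -0.03 ± 0.09 in mHAR123 (-0.21 to 0.16, adjusted p = 0.888), and mHAR123 differed from cHAR123 by 0.01 ± 0.09 (-0.17 to 0.20, adjusted p = 0.987). No member was called in these 3 comparisons by edgeR or by DESeq2, beside 0.271%, 0.244% and 0.158% of all genes tested called by edgeR. No member had an unadjusted p under 0.05 in them, while 5739 of 20659, 5674 of 20926 and 1940 of 20950 of all genes tested did. Without hHAR123 replicate 2 or HAR123-KO replicate 2 the HAR123-KO value was 0.94 or 0.98, under the limit. Being edited and differing in the HAR123 element cannot be told apart in what the 3 genotypes share against hHAR123.

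TFAP2B in hESCs was at the edge of detection. It had no read in hHAR123, 3, 6 and 5 reads in HAR123-KO, 4, 0 and 0 reads in cHAR123 and 1, 2 and 2 reads in mHAR123. HAR123-KO stood at 5.45 times a floor of 3 counts over the hHAR123 group, leaving out the counting error of its own reads. TFAP2B was too low for the filter on low counts, and it was called by edgeR in HAR123-KO when that filter was lifted (log2 fold change 5.35 ± 1.56, adjusted p = 0.00855). DESeq2, run without that filter, called 1 member in this comparison, TFAP2C, and not TFAP2B. TFAP2A had 0, 1 and 2 reads in HAR123-KO hESCs against 5, 0 and 1 in hHAR123, a ratio of 0.584 with an exact counting interval of 0.0944 to 2.73. TFAP2E had 6 to 8 reads in HAR123-KO, 8 to 14 in cHAR123 and 4 to 13 in mHAR123, beside 7 to 12 in hHAR123. It passed the filter in 2 of the 6 hESC comparisons and was called in neither (0.44 ± 0.40 for cHAR123 against hHAR123, adjusted p = 0.449; -0.53 ± 0.42 for mHAR123 against cHAR123, adjusted p = 0.786).

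From hESCs to neuroectoderm, TFAP2C was called higher in HAR123-KO and in none of the other 3 genotypes. If the cHAR123 and mHAR123 labels of the neuroectoderm libraries are exchanged, the stage values of these genotypes, and their interactions, set hESCs of one against neuroectoderm of the other. In HAR123-KO all 4 members tested were called higher, beside 41.1% of all genes tested, and in cHAR123 and mHAR123 3 of 4 were, beside 42.7% and 41.9%. In each, TFAP2A and TFAP2B again passed the filter on low counts only through neuroectoderm and could only be called higher. For TFAP2C the log2 fold change was 3.26 ± 0.06 in HAR123-KO (adjusted p = 9.49e-52), 0.21 ± 0.09 in cHAR123 (adjusted p = 0.0277) and 0.38 ± 0.09 in mHAR123 (adjusted p = 9.01e-05). TFAP2B reached its neuroectoderm level from 14 reads over 3 hESC libraries in HAR123-KO, a ratio of 2129 with a counting interval of 1269 to 3895, from 4 reads in cHAR123 (544, 212 to 2000) and from 5 in mHAR123 (659, 282 to 2032). TFAP2A had 3, 5 and 2 hESC reads in HAR123-KO, cHAR123 and mHAR123, and its ratios were 1870 (639 to 9069), 148 (63.3 to 459) and 519 (143 to 4296). TFAP2E rose in each, by log2 fold changes of 2.33 ± 0.34 in HAR123-KO, 1.38 ± 0.31 in cHAR123 and 2.13 ± 0.35 in mHAR123 (adjusted p from 7.51e-09 to 1.02e-04).

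An interaction term over 12 libraries tested whether the difference of a genotype from hHAR123 was another one at each stage. For HAR123-KO, 2 of 4 members tested were called, beside 7.87% of all genes tested. The TFAP2C difference was larger in neuroectoderm by 3.36 ± 0.13 on the log2 scale (95% interval 3.09 to 3.62, adjusted p = 3.76e-27). The TFAP2A difference was larger by 4.27 ± 1.11 (adjusted p = 0.00133), but this rests on 6 hHAR123 and 3 HAR123-KO reads in hESCs, and without hHAR123 hESC replicate 1, which holds 5 of the 6, it was 2.5 (adjusted p = 0.405). For TFAP2B the value was 0.57 ± 0.71 (adjusted p = 0.598), with no hHAR123 hESC read to set it against, and for TFAP2E it was 0.04 ± 0.47 (-0.90 to 0.99, adjusted p = 0.957). For cHAR123 and mHAR123 no member was called by edgeR or by DESeq2, beside 0.797% and 0.967% of all genes tested, and 1 and 2 members had an unadjusted p under 0.05. The TFAP2C value was 0.31 ± 0.15 for cHAR123 (0.01 to 0.61, adjusted p = 0.169) and 0.49 ± 0.15 for mHAR123 (0.19 to 0.79, adjusted p = 0.0135), both as the libraries are labelled.

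**Figure D4:**
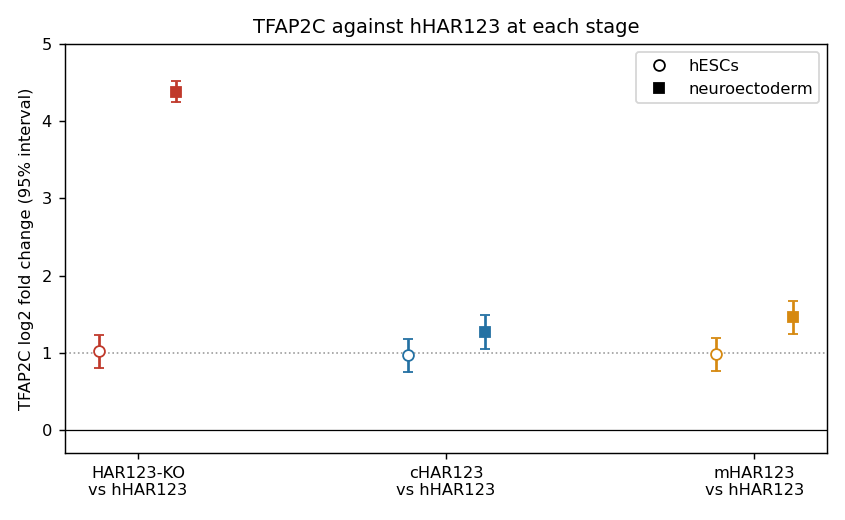
Log2 fold change of TFAP2C against hHAR123 with its 95% interval in hESCs (open circles) and neuroectoderm (filled squares) for the 3 edited genotypes, with the fold limit of 2 as a dotted line. In hESCs the values are 1.02, 0.97 and 0.99, and in neuroectoderm 4.38 for HAR123-KO, 1.27 for cHAR123 and 1.46 for mHAR123, with the neuroectoderm libraries as labelled.

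No gene of a list of 10 AP-2 cofactors and regulators was called by edgeR in neuroectoderm between an edited genotype and hHAR123. So few genes say little beside the shares of all genes called. Of the 10, 9 were tested in HAR123-KO against hHAR123 neuroectoderm and none was called, beside 9.45% of all genes tested. An unadjusted p under 0.05 was found for 6, as for 12332 of 21362 of all genes tested. The median log2 fold change was -0.01 beside 0.00 over all genes tested. The largest value was that of KCTD1 (0.89 ± 0.06, adjusted p = 6.73e-18), and KCTD15 followed (0.69 ± 0.04, adjusted p = 4.87e-19). Both encode BTB proteins that bind AP-2 alpha and repress its activity, and both were picked for naming after their values were seen. In cHAR123 and mHAR123 neuroectoderm edgeR called no cofactor of 9 and 10 tested, beside 0.978% and 1.03% of all genes tested. An unadjusted p under 0.05 was found for 4 and 5, as for 6160 of 21275 and 7171 of 21220 of all genes tested. In the other kinds of comparison some were called. KCTD1 was called in the HAR123-KO interaction (1.09 ± 0.09, adjusted p = 1.73e-14), 1 of 9 tested beside 7.87% of all genes tested. From hESCs to neuroectoderm, CITED2 and WWOX were called higher in all 4 genotypes and KCTD1 in HAR123-KO. CITED4 was called lower in hHAR123, HAR123-KO and cHAR123. Between 41.1% and 45.9% of all genes tested were called in these stage comparisons.

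Of 14 genes known as AP-2 targets in other cells, 11 were tested and 1 was called, higher, with a median of -0.29, a share near the 9.45% called of all genes tested in this comparison. The gene called was KIT, the stem cell factor receptor, at 9.18 ± 0.408 CPM in hHAR123 and 42.8 ± 2.42 CPM in HAR123-KO (log2 fold change 2.27 ± 0.07, adjusted p = 1.04e-32). KIT was also the 1 call of 9 targets tested in mHAR123 (1.04 ± 0.08, adjusted p = 3.76e-13), beside 1.03% of all genes tested. In cHAR123 it lay under the fold limit (0.89 ± 0.08, adjusted p = 2.66e-11). There edgeR called 0 of 9, beside 0.978%, and 6 had an unadjusted p under 0.05. Of the 11 tested in HAR123-KO 8 had one, as had 12332 of 21362 of all genes tested. In the HAR123-KO interaction KIT was called higher and CDKN1A and MCAM lower, beside 7.87% of all genes tested. The keratins KRT5 and KRT14 were at 0 in HAR123-KO neuroectoderm, and the target list summed to 1187 to 1213 CPM there beside 1553 to 1562 CPM in hHAR123. Most of that sum was IGFBP5, at 955 ± 7.82 and 1256 ± 10.6 CPM.

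Of the genes antisense to a member, TFAP2A-AS1 had 1 to 7 reads in hHAR123 neuroectoderm and 30 to 36 in HAR123-KO (log2 fold change 3.27 ± 0.41, adjusted p = 2.01e-09), and none in hESCs. Over the 12 neuroectoderm libraries it had 128 reads beside 6536 of TFAP2A. TFAP2E-AS1 had 13 to 20 and 10 to 24 reads in the same groups (0.10 ± 0.33, adjusted p = 0.829), and TFAP2A-AS2 had 0 to 2 and 0 to 6 reads and was not tested.

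Markers of the neural crest and the neural plate border were mostly higher in HAR123-KO neuroectoderm, and forebrain markers lower, in a comparison where 9.45% of all genes tested were called. Of 11 neural crest markers 10 were tested, 9 were called higher and none lower (median 3.35), and the list summed to 1963 to 1989 CPM beside 355 to 363 CPM in hHAR123. FOXD3, which specifies neural crest and is also used in pluripotent cells, rose from 2.496 ± 0.202 to 188 ± 0.340 CPM (log2 fold change 6.27 ± 0.06, adjusted p = 1.14e-53), and SNAI2, which acts when crest cells leave the epithelium, from 2.15 ± 0.304 to 66.5 ± 0.866 CPM (4.99 ± 0.08, adjusted p = 2.31e-44). Of 8 neural plate border markers 7 were tested, 5 were called higher, among them PAX7 (6.09 ± 0.07, adjusted p = 1.50e-50) and MSX1 (3.61 ± 0.08, adjusted p = 1.28e-38), and 2, DLX5 and DLX6, lower. DLX5 and DLX6 were low, at 1.15 ± 0.166 and 0.889 ± 0.0708 CPM in hHAR123. With 4 to 5 and 6 to 7 reads a library in HAR123-KO, they passed the filter on low counts only through hHAR123. That list summed to 697 to 716 CPM in HAR123-KO beside 109 to 114 CPM in hHAR123.

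Surface ectoderm markers were called for 2 of 10 tested, both higher, beside 9.45% of all genes tested: GATA3 (1.11 ± 0.0870 CPM in HAR123-KO, log2 fold change 3.89 ± 0.47, adjusted p = 7.85e-10) and DLX3 (1.32 ± 0.20, adjusted p = 2.57e-07). GATA3 had 1 to 2 reads a library in hHAR123 and 24 to 29 in HAR123-KO. It passed the filter on low counts only through HAR123-KO, so it could only be called higher, here and in the next list. The list summed to 235 to 246 CPM in HAR123-KO and 288 to 294 CPM in hHAR123, with KRT5 and KRT14 at 0 in both. Of the amnion and trophoblast markers 4 of 11 were tested, with GATA3 higher and GATA2 and IGFBP3 lower (IGFBP3 -2.06 ± 0.13, adjusted p = 7.84e-19). They summed to 4.48 to 5.39 CPM in HAR123-KO and 10.8 to 11.5 CPM in hHAR123, with CDX2, CGA and ELF5 at 0 in HAR123-KO. Of 7 primordial germ cell markers KIT alone was called among 3 tested, and counts over so few tested genes say little beside that share. SOX17 was at 0 in HAR123-KO.

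The neuroectoderm and forebrain list went the other way, with 6 of 9 tested called lower and none higher (median -1.73), beside 9.45% of all genes tested called in either direction, and sums of 676 to 686 CPM in HAR123-KO beside 1666 to 1708 CPM in hHAR123. RAX, of the eye field, fell by 4.10 ± 0.19 on the log2 scale (adjusted p = 5.28e-25) and FEZF2, of the forebrain, by 3.60 ± 0.06 (adjusted p = 7.94e-44). Of 7 pluripotency genes ZFP42 was called higher (2.22 ± 0.09, adjusted p = 5.35e-28) and SOX2, which neural cells also use, lower (-1.73 ± 0.03, adjusted p = 4.78e-43). Of 3 naive pluripotency markers tested SUSD2 was called higher (1.20 ± 0.11, adjusted p = 1.20e-13). The part of these cell types in the TFAP2 levels was not tested.

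**Figure D5:**
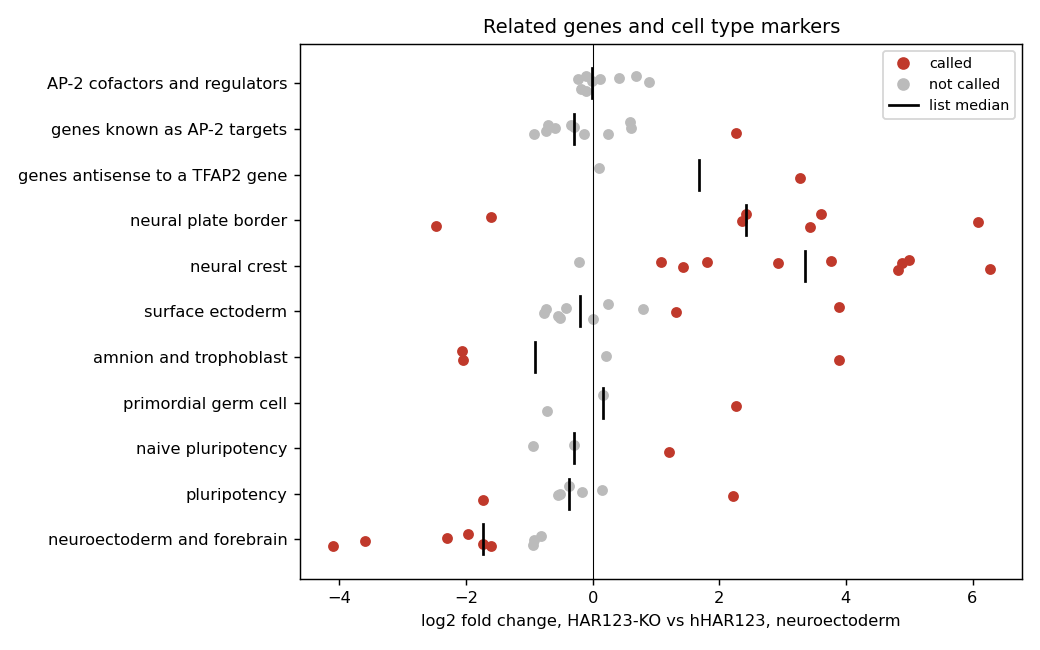
Log2 fold change in HAR123-KO against hHAR123 neuroectoderm for each tested gene (points, red where called) of the 3 lists related to AP-2 factors and of the 8 marker lists, with the list median as a black line. The neural crest list has a median of 3.35 and the neuroectoderm and forebrain list of -1.73, while the cofactor list lies at -0.01.

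With a replaced element fewer of these genes were called, as were fewer of all genes tested (0.978% in cHAR123 and 1.03% in mHAR123, beside 9.45% in HAR123-KO). Neural crest markers were called higher for 4 of 10 tested in the libraries labelled cHAR123 and for 6 of 10 in those labelled mHAR123, with medians of 0.81 and 1.15, and sums of 444 to 450 and 515 to 523 CPM. Neural plate border markers were called higher for 5 of 7 in cHAR123 and 1 of 7 in mHAR123, but 5 of 7 had an unadjusted p under 0.05 in each and none was called between them by edgeR, where 5 of 7 had an unadjusted p under 0.05. PAX3 lay just over the fold limit in cHAR123 (1.03 ± 0.04) and just under it in mHAR123 (0.97 ± 0.04). ZIC1 lay further apart, at 17.7 ± 0.336 CPM in hHAR123, 35.6 ± 1.63 in cHAR123 and 22.4 ± 1.16 in mHAR123. MSX2 did too, at 1.68 ± 0.188, 3.52 ± 0.356 and 2.41 ± 0.280 CPM in the same order. These border genes were picked for naming after their values were seen. Surface ectoderm markers had no call by edgeR among 8 tested in either, with unadjusted p under 0.05 for 3 and 4. Of the neuroectoderm and forebrain list RAX was called in cHAR123 (-1.16 ± 0.11, adjusted p = 3.25e-11) and none of 9 was in mHAR123, where 5 had an unadjusted p under 0.05. In HAR123-KO hESCs, the only call in the 11 lists was that of DPPA5, a naive pluripotency gene named after its value was seen (1.23 ± 0.31, adjusted p = 0.00275), beside 1.18% of all genes tested. In each list 1 to 6 genes had an unadjusted p under 0.05, as had 6191 of all 20832 genes tested. The 7 naive pluripotency markers summed to 23.99 to 24.7 CPM there and to 19.97 to 23.0 CPM in hHAR123, and KLF17 was at 0 in both groups.

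As a description over all 24 libraries, the genes whose log2(CPM + 1) followed a member most closely were ranked by Pearson's r among 17479 genes that averaged 1 CPM or more. The libraries share stages and genotypes, so such values carry no test. For TFAP2A the 5 closest were PDE1B, ENC1, PAX2, PRELP and NOG (r = 0.997 to 0.995), and for TFAP2B they were NPR3, BMP5, ITGA8, MSX1 and ITGA4 (0.998 to 0.993). For TFAP2C they were PCDH7, GAP43, COL1A2, CHST3 and ABCC2 (0.989 to 0.974). TFAP2A and TFAP2B were close to each other (r = 0.992) and less so to TFAP2C (0.762 and 0.804), which had 115 to 265 reads a library in hESCs. Over the 12 neuroectoderm libraries the same values were 0.971, 0.987 and 0.991 for A with B, A with C and B with C.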

How the data were processed

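RNA from 24 H9 libraries was depleted of ribosomal RNA, made into directional libraries and sequenced as paired ends. The authors aligned reads to GRCh38 with STAR 2.5.2b and assigned them to Ensembl genes by exon with featureCounts. What they deposited is one table of raw read counts with the exonic length of each gene, so CPM and RPKM were computed here from library totals and these lengths. One entry, broken over 3 lines, was left out. Total counts were 21022748 to 35198684 per library, and pairs of replicates differed by more than sampling noise (chi-square per degree of freedom 1.40 to 4.97).

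Groups follow the sample labels. Only the groups compared entered a fit in edgeR 4.0.16 (R 4.3.3), with filterByExpr, TMM scaling and the quasi-likelihood test; the SE is the log2 fold change over the root of F. Interactions used 12 libraries. Calls needed an adjusted p under 0.01, over all genes tested, and a fold change over 2, the thresholds of the study. TFAP2C was tested in 19 comparisons, TFAP2E in 15, TFAP2A and TFAP2B in 13 and TFAP2D, under the filter on low counts, in none. Ratios of summed reads have exact 95% intervals that cover counting error only. Alternatives were DESeq2 1.42.0, its size factors, totals alone, no filter, a fit of all libraries, the replicate number as a block, other thresholds and leaving out each library.

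From each list the 2 called genes with the largest change in HAR123-KO neuroectoderm are named. The members and lists were chosen with earlier results of these data known. Promoter motifs were chosen after the counts were seen. Some libraries of a condition share a clone, and nothing in the labels says that the 3 came from separate cultures. The p-values thus measure only the spread between these libraries.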

Additional observations from a re-analysis of the deposited data

Results flagged for a closer look

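The difference between HAR123-KO and hHAR123 changed with the stage, by the test of the interaction, for 2 of the 4 members tested. For TFAP2C it was larger in neuroectoderm by 3.36 ± 0.13 on the log2 scale (edgeR's quasi-likelihood test, adjusted p = 3.76e-27), and all 12 values with 1 library left out stayed called. For TFAP2A it was larger by 4.27 ± 1.11 (adjusted p = 0.00133). In hESCs TFAP2A had 5, 0 and 1 reads in hHAR123 and 0, 1 and 2 in HAR123-KO, and without hHAR123 hESC replicate 1 the value was 2.5 (adjusted p = 0.405).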

How the results depend on the processing

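Over the 19 comparisons, DESeq2, its size factors, a fit of all libraries, the replicate block and an adjusted p under 0.05 gave the same number of called TFAP2 genes as reported. In HAR123-KO against hHAR123 hESCs the count was 1 and became 2 with no filter (TFAP2B added). No filter also added TFAP2D to the stage comparison of cHAR123, where 3 calls became 4 (log2 fold change 5.06, adjusted p = 0.00451, on 0 and 12 reads). In cHAR123 and mHAR123 against hHAR123 hESCs it was 0 and became 1 with library totals alone or with no fold limit (TFAP2C). In mHAR123 against cHAR123 neuroectoderm it was 0 and became 2 with no fold limit, which also added TFAP2A in cHAR123 against hHAR123 neuroectoderm and TFAP2C over the stages in mHAR123. With library totals alone TFAP2C in hHAR123 over the stages turned to 0.17 on the log2 scale and the TFAP2E interaction of HAR123-KO to -0.02, neither called, and TFAP2A in mHAR123 neuroectoderm fell under the limit (0.96).

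With 1 library left out, the count ranged from 0 to 1 in each edited genotype against hHAR123 in hESCs, from 2 to 3 in mHAR123 against hHAR123 neuroectoderm, and from 1 to 2 in the HAR123-KO interaction. The hESC call was lost in HAR123-KO without hHAR123 replicate 2 or HAR123-KO replicate 2. It was gained in cHAR123 without hHAR123 replicate 3 or cHAR123 replicate 1, and in mHAR123 without hHAR123 replicate 3, mHAR123 replicate 1 or mHAR123 replicate 2. Values that were not called and changed sign were those of TFAP2C in hESCs for cHAR123 against HAR123-KO (-0.07 to 0.00), mHAR123 against HAR123-KO (-0.09 to 0.02) and mHAR123 against cHAR123 (-0.05 to 0.06), and of TFAP2E in neuroectoderm for mHAR123 against HAR123-KO (-0.39 to 0.09) and against cHAR123 (-0.11 to 0.38). So did the interactions of TFAP2E in HAR123-KO (-0.21 to 0.28) and mHAR123 (-0.47 to 0.37), TFAP2A in cHAR123 (-1.09 to 1.23) and TFAP2B in cHAR123 (-2.09 to 2.08). The cause was not tested.

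Deviations of same-numbered libraries from their group means had correlations from -0.30 to 0.335, with no group pair over 0.1 throughout. No pairing by replicate number was seen, but with 3 libraries a group this check cannot exclude one. With the replicate block, 0 of 60 member calls changed, no log2 fold change moved by over 0.02, and TFAP2A, TFAP2B and TFAP2C made 3 calls in HAR123-KO against hHAR123 neuroectoderm as without it. Over all genes, calls differed by over 1.5 times with DESeq2 in 10 of 19 comparisons (at most 51 against 10), with an adjusted p under 0.05 in 4 (229 against 487) and with no fold limit in 19 (56 against 1672). Library totals alone raised the share of higher calls from 53.7% to 65.5% in hHAR123 over the stages and lowered it from 31.4% to 18.5% in the mHAR123 interaction. Of the 5 genes most like each member, 0 or 1 stayed when only neuroectoderm libraries were used, and 0 for TFAP2A and 1 for TFAP2B, but all 5 for TFAP2C, with a pseudocount of 0.1. Depth limits TFAP2D at both stages and TFAP2A and TFAP2B in hESCs, where counts were 0 to 6 a library.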
